A study of Mus musculus with 6 samples.

Results

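The mTOR kinase works in a pair of complexes. With RPTOR (raptor) it forms mTORC1, which raises protein synthesis and holds back autophagy when growth factors and amino acids are plentiful, and with RICTOR it forms mTORC2, which phosphorylates AKT and related kinases. The 10 genes described here were given by name and cover the core of this machine: *Mtor* and the shared subunit *Mlst8*, the complex-defining subunits *Rptor* and *Rictor*, the switch upstream of mTORC1 (*Rheb*, *Tsc1* and *Tsc2*), the inhibitors *Ddit4* (also called Redd1) and *Akt1s1* (PRAS40), and the substrate *Eif4ebp1* (4E-BP1). All 10 were among the 53657 gene names counted and among the 19656 that passed the expression filter.

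RAS proteins reach this machine through phosphatidylinositol 3-kinase (PI3K) and AKT, and through ERK, both of which phosphorylate the TSC2 protein and so release RHEB, the GTPase that switches mTORC1 on. In undifferentiated spermatogonia (A_undiff), the pool that holds the stem cells of the testis, the transcription factor PLZF (gene *Zbtb16*) is known to oppose mTORC1, in part by raising *Ddit4*, and active mTORC1 favors the loss of stem cells to differentiation. These steps are largely phosphorylations, which RNA counts do not see. What the counts can show is whether the transcripts of the machine differ between A_undiff with and without an activated *Hras*.

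The samples were MCAM-bright, tdTomato+ A_undiff sorted from 6 adult mice, 3 WT and 3 MUT, taken 3 months after tamoxifen. In the MUT mice the drug induced a heterozygous *Hras* G12V mutation in *Gfra1*-expressing germ cells and not in the whole animal. MCAM is a surface protein that is brightest on A_undiff among the tdTomato+ germ cells, and it is also expressed in somatic cells. All 6 mice, WT included, carried a tamoxifen-inducible Cre under the *Gfra1* promoter and a tdTomato reporter, so both groups had the drug, the recombinase and the label, and in MUT the recombined allele sat at the endogenous locus. Each library held between 22729292 and 23550433 counts, and no member fell below 877 counts in any library, far above the 3 counts (0.127 to 0.131 CPM, counts scaled to library size) taken as the limit of detection for counting error. *Hras*, the targeted gene, had 1300 to 1542 counts in WT and 1426 to 1600 in MUT, which do not separate its alleles. From variant calls on its RNA-seq reads, the paper reports that most of the sorted MUT cells carried the mutation. The 11 markers of A_undiff summed to between 2787 and 3392 CPM in WT and between 2948 and 3473 CPM in MUT, with all 11 detected in every library.

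One library stood apart. WT replicate 3 had the lowest sum of A_undiff markers (2787 CPM). Of these, *Zbtb16*, *Ret*, *Sall4*, *Lin28a* and *Cdh1* were lowest there, while *Gfra1*, *Nanos2*, *Id4*, *Etv5*, *Uchl1* and *Mcam* were not. The library also had the highest level of 5 of 5 macrophage markers. Their sum was 596 CPM there, 452 and 400 CPM in WT replicates 1 and 2, and 332, 398 and 437 CPM in MUT replicates 1, 2 and 3. Its sum of the 4 spermatid markers was the highest (1172 CPM), with 3 of the 4 highest there. That sum was 932 and 680 CPM in WT replicates 1 and 2, and 471, 507 and 893 CPM in MUT replicates 1, 2 and 3. WT replicate 3 also had the highest sums of Sertoli cell (118 CPM) and spermatocyte markers (119 CPM), with 1 marker of each list highest there. None of these markers was at 0 anywhere. In MUT replicate 3 the 6 Leydig cell markers summed to 67.3 CPM, against 12.9 to 21.1 CPM elsewhere. The part of these cells in the results below was not tested, and each member is given with and without WT replicate 3.

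Sequence from the start sites of 4 members is shown first. The promoters of *Mtor*, *Tsc2* and *Akt1s1* share the 8 letters that ETS factors bind, a family of transcription factors that includes ETV5 of A_undiff and classic targets of RAS and ERK, and that of *Ddit4* is shown as the gene PLZF acts on. Each window runs 5′ to 3′ on the gene's strand, from 250 bases before to 50 bases after the start in RefSeq (GRCm38.p6), and capitals mark CCGGAAGT or its reverse complement:
Mtor, chr4:148448332-148448631, plus strand: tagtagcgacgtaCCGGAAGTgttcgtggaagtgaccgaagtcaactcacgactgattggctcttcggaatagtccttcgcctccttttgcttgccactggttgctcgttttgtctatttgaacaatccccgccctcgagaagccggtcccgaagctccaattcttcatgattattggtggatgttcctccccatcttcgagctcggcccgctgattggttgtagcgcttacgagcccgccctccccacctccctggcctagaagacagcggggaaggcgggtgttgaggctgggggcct
Tsc2, chr17:24632578-24632877, minus strand: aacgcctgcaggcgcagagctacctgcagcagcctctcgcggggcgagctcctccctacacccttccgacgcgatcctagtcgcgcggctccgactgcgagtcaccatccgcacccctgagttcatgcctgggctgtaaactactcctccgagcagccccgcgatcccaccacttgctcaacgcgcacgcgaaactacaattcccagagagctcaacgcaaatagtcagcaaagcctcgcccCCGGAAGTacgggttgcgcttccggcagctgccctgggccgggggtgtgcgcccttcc
Akt1s1, chr7:44850122-44850421, plus strand: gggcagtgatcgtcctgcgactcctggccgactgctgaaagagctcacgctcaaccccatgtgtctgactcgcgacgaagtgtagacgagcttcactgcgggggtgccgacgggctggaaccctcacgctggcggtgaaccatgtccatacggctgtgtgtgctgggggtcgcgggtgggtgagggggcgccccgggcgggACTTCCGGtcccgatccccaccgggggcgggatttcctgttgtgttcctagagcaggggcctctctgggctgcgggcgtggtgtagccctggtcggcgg
Ddit4, chr10:59951721-59952020, minus strand: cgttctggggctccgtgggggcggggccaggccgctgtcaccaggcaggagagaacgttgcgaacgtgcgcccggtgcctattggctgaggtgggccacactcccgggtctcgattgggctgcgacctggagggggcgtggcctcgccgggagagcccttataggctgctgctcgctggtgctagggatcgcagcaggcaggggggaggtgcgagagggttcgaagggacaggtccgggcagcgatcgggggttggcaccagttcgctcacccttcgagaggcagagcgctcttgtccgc

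A promoter window was found for 9 members, all but *Eif4ebp1*. The ETS letters CCGGAAGT, searched on both strands, began at position -237 of *Mtor*, -8 of *Tsc2* and -49 of *Akt1s1*, counted from the start site at 0, and were in 3 of 9 member windows against 3.89% of all 32851 windows. The CLEAR element GTCACGTG, bound by the lysosomal regulator TFEB that mTORC1 restrains, was in the *Rheb* window and in 2.25% of all windows, and it contains the E-box CACGTG, which was in the *Rheb* window and in 7.15% of all. CCAAT was found for *Mtor*, *Rictor* and *Ddit4* (37.4% of all windows), and the GC box GGGCGG for *Mtor*, *Rictor*, *Rheb*, *Ddit4* and *Akt1s1* (35.7% of all). None of the 9 windows held the cAMP response element TGACGTCA (1.79% of all), the amino acid response element TTGCATCA (0.895%) or TATAAA (13.6%). The member windows were rich in G and C, at a median of 65% with 26 CpG, against 52.7% with 7 CpG over all windows. A match is a string of letters and no evidence of binding, and none of the 3 members with the ETS letters passed the test of MUT against WT described below.

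The transcript of the kinase itself was plentiful. *Mtor* lies on chromosome 4 from 148448611 to 148557683 of GRCm38 and stood at 466, 458 and 317 CPM in WT replicates 1, 2 and 3 and at 479, 479.7 and 463 CPM in MUT replicates 1, 2 and 3. The MUT mice were nearly identical, and 2 of the WT mice were close to them, while WT replicate 3 was far below all others. Mean levels were 414 ± 84.0 CPM for WT and 474 ± 9.79 CPM for MUT (SD, n = 3 each), a log2 fold change of 0.20 with a 95% confidence interval from -0.12 to 0.51. Without WT replicate 3 the log2 fold change fell to 0.036 (interval -0.084 to 0.16), so the larger value rested on that library. *Mtor* was higher in MUT in all 3 same-numbered pairs, by 0.041, 0.066 and 0.55 on the log2 scale, and with the replicate number as a block its unadjusted p was 0.069 and its adjusted p 0.788 (edgeR). *Mlst8*, which encodes a small subunit that steadies the kinase in both complexes, had 47.2, 48.8 and 42.3 CPM in WT and 50.9, 45.2 and 46.1 CPM in MUT, with overlapping groups and a log2 fold change of 0.041. Of the exonic bases of *Mlst8*, 29.6% lie in exons of *Bricd5* on the opposite strand, and fragments there were not counted for either gene, so its level is a minimum.

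The subunits that tell the complexes apart did not differ detectably by genotype. *Rptor*, the scaffold that brings substrates to mTORC1, was at 153, 138 and 102 CPM in WT and at 144, 133 and 142 CPM in MUT. *Rictor*, the scaffold of mTORC2, was at 422, 349 and 267 CPM in WT and at 379, 362 and 330.3 CPM in MUT. For both genes the MUT mice lay within the range of the WT mice, whose lowest value was again replicate 3. The log2 fold changes were 0.091 (standard error 0.13) for *Rptor* and 0.047 (standard error 0.15) for *Rictor*, and without WT replicate 3 they became -0.059 and -0.11.

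Of the switch genes, *Tsc1* and *Tsc2* encode the partners of the complex that turns RHEB off. *Tsc2* had 394, 416 and 291 CPM in WT and 420.4, 386 and 398 CPM in MUT, and *Tsc1* had 104, 94.2 and 73.4 CPM in WT and 90.5, 91.6 and 94.2 CPM in MUT. WT replicate 3 was the lowest library for both, and the groups overlapped. Their log2 fold changes were 0.13 (interval -0.17 to 0.42) and 0.025 (interval -0.24 to 0.29), and -0.015 and -0.11 without WT replicate 3. *Rheb* gave another order, with 68.9, 74.7 and 78.0 CPM in WT, where replicate 3 was the highest, and 73.8, 80.7 and 71.0 CPM in MUT. Its log2 fold change was 0.025 (interval -0.15 to 0.20). Of the exonic bases of *Tsc2*, 7.2% are shared with *Pkd1* on the opposite strand and were not counted.

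*Ddit4*, the stress-induced inhibitor through which PLZF acts, was the 1 member with a negative log2 fold change. It had 58.2, 53.3 and 53.0 CPM in WT and 53.9, 47.6 and 54.9 CPM in MUT, so the groups overlapped and only MUT replicate 2 lay below every WT mouse. The log2 fold change was -0.072 (interval -0.26 to 0.11), and it stayed negative, between -0.11 and -0.025, in each of 15 alternative fits. *Akt1s1*, whose product blocks mTORC1 until AKT phosphorylates it, had 38.3, 40.4 and 38.9 CPM in WT and 42.8, 39.9 and 38.8 CPM in MUT, with the narrowest interval of the 10 (-0.12 to 0.22). *Eif4ebp1*, whose product holds back cap-dependent translation until mTORC1 phosphorylates it, had 76.3, 67.4 and 74.0 CPM in WT and 83.3, 82.4 and 70.2 CPM in MUT. In MUT replicates 1 and 2 *Eif4ebp1* was above every WT mouse and in MUT replicate 3 below WT replicates 1 and 3, and its log2 fold change was 0.12 (interval -0.083 to 0.31). It was 0.053 without WT replicate 2 and 0.19 without MUT replicate 3.

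**Figure D1:**
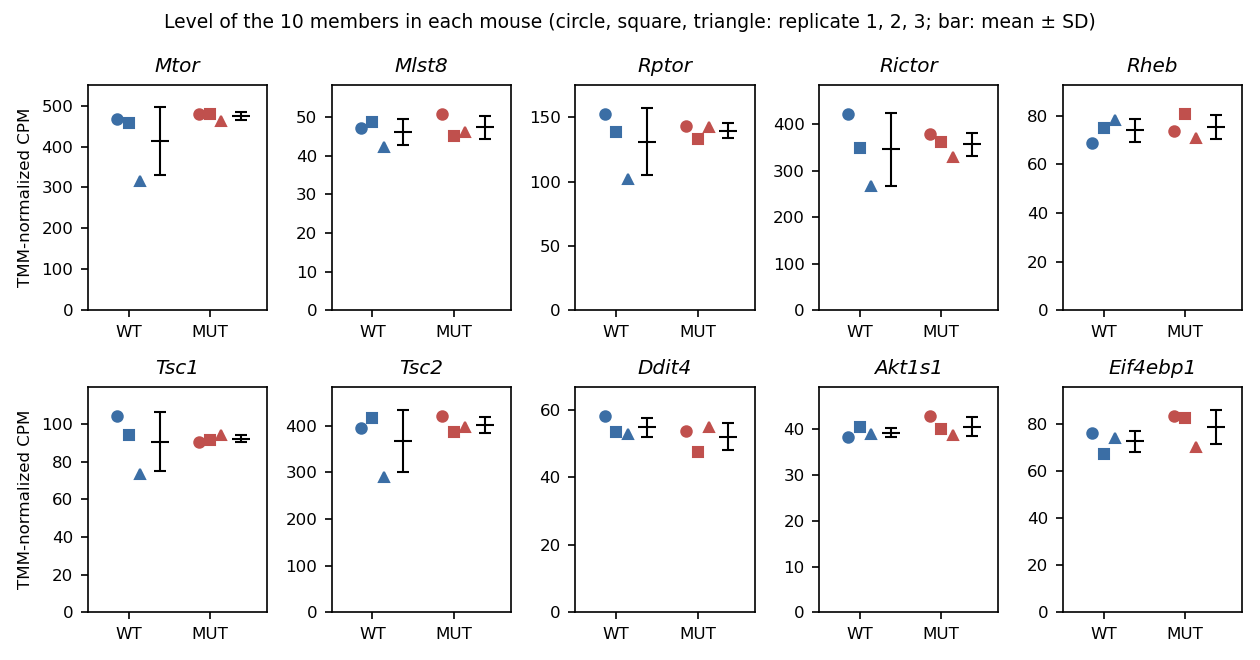
TMM-normalized level (CPM, linear axes from 0) of the 10 members in each of 3 WT (blue) and 3 MUT (red) mice, with symbols for replicates 1 to 3 and black bars for the mean ± SD (n = 3). The groups overlap for every gene, and the blue triangle of WT replicate 3 lies below all other libraries for *Mtor*, *Mlst8*, *Rptor*, *Rictor*, *Tsc1* and *Tsc2*.

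Across the members, none passed the threshold. With edgeR's quasi-likelihood test and Benjamini-Hochberg adjustment over all 19656 genes, 0 of 10 members had an adjusted p under 0.1 (each was at 0.998), where 0.0102% of all genes did. DESeq2 and limma voom also called 0 of 10. An unadjusted p under 0.05 was reached by 0 of 10 members and by 2.78% of all genes. *Mtor* came closest, with an unadjusted p of 0.196 and an adjusted p of 0.998 from edgeR. For 0 of 10 members did the WT and MUT mice separate without overlap, as 7.69% of all genes did, and with 3 mice against 3 the smallest p that an exact two-sided permutation test can give is 0.1. Of the 10 log2 fold changes 9 were positive, with a median of 0.046 against 0.0066 over all tested genes, and without WT replicate 3 the fold changes of *Mlst8*, *Rptor*, *Rictor*, *Tsc1* and *Tsc2* turned negative.

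The intervals state what size of difference remains possible. For all 10 members the 95% interval lay inside a 1.5-fold change in either direction, as it did for 92% of the 10583 genes above 10 CPM, so this precision is common at such levels. The widest reach was that of *Mtor*, up to 0.51 on the log2 scale, followed by *Tsc2* at 0.42. In each of 3 fits that left out 1 mouse (WT replicate 1, WT replicate 2 or MUT replicate 3), 9 of 10 intervals stayed inside that bound. Bulk RNA cannot tell fewer cells that express a gene from less RNA per cell.

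**Figure D2:**
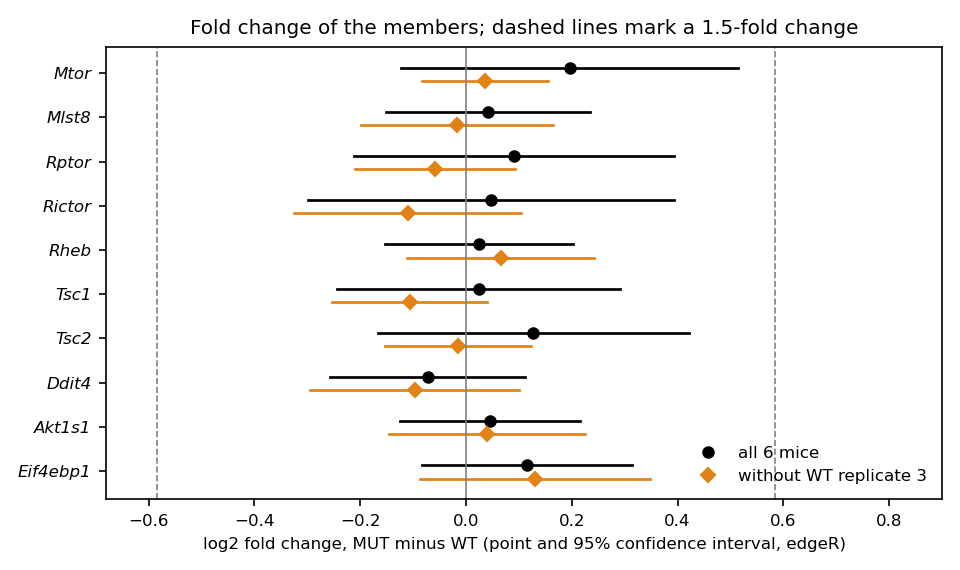
Log2 fold change of each member, MUT minus WT, with its 95% confidence interval from edgeR, for all 6 mice (black circles) and without WT replicate 3 (orange diamonds); dashed lines mark a 1.5-fold change. Every interval includes 0, and *Mtor* moves from 0.20 to 0.036 when WT replicate 3 is left out.

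The members split by transcript length in how WT replicate 3 behaved. The 5 members whose longest coding transcript exceeds 6000 bases were *Rictor* (9312), *Mtor* (8564), *Tsc1* (7702), *Rptor* (6594) and *Tsc2* (6266), and in each of them WT replicate 3 was the lowest of the 6 libraries. The other 5 have transcripts of 3855 bases (*Mlst8*) or under 2000 bases, and among these WT replicate 3 was lowest only for *Mlst8*. Its length of 3855 comes from a later GENCODE release. In the release used for counting, all exons of *Mlst8* make up 3366 bases. The log2 difference of WT replicate 3 from the mean of the other WT mice was between -0.54 (*Mtor*) and -0.43 (*Tsc1*) in the long members and between -0.073 (*Ddit4*) and 0.12 (*Rheb*) in those under 2000 bases. WT replicate 3 was the lowest library for 6 of 10 members, against 27% of all tested genes, which were not matched to the members in length or level.

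The same order ran through the whole library. Over 10033 genes above 10 CPM with a transcript length, the deviation of WT replicate 3 from the mean of the 6 libraries had a Spearman correlation of -0.60 with length, against values between 0.053 and 0.45 in the other libraries; genes share libraries and are not independent. The median difference of WT replicate 3 from the other WT mice was 0.16 for the 2219 genes under 2000 bases and -0.29 for the 1543 genes over 6000 bases. The long members were lower than most genes of their own length class, since only 14.6% (*Mtor*) to 28.0% (*Tsc1*) of that class were lower still. A correction for the length trend of each library, chosen after seeing the data, gave *Mtor* a log2 fold change of 0.15, *Tsc2* 0.093, *Rptor* 0.057 and *Rictor* -7.6e-05, and 0 of 10 members were called. With this correction *Mtor* had an unadjusted p of 0.054 (edgeR, adjusted p = 0.997). With the replicate block added it had one of 0.025 (edgeR, adjusted p = 0.625). In that blocked fit 1 of 10 members and 1412 of all 19656 genes had an unadjusted p under 0.05 (edgeR), against 547 of all genes in the main fit. The 5 long members also varied widely within WT. The SD of log2 level of *Rictor* over the WT mice was 0.33, higher than that of 93.7% of genes above 10 CPM, and that of *Tsc1*, the least variable of the 5, was 0.26, higher than that of 87.1%. Over the MUT mice the SD of these members ran from 0.029 (*Tsc1*, above 8.62% of genes) to 0.10 (*Rictor*, above 63.2%).

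**Figure D3:**
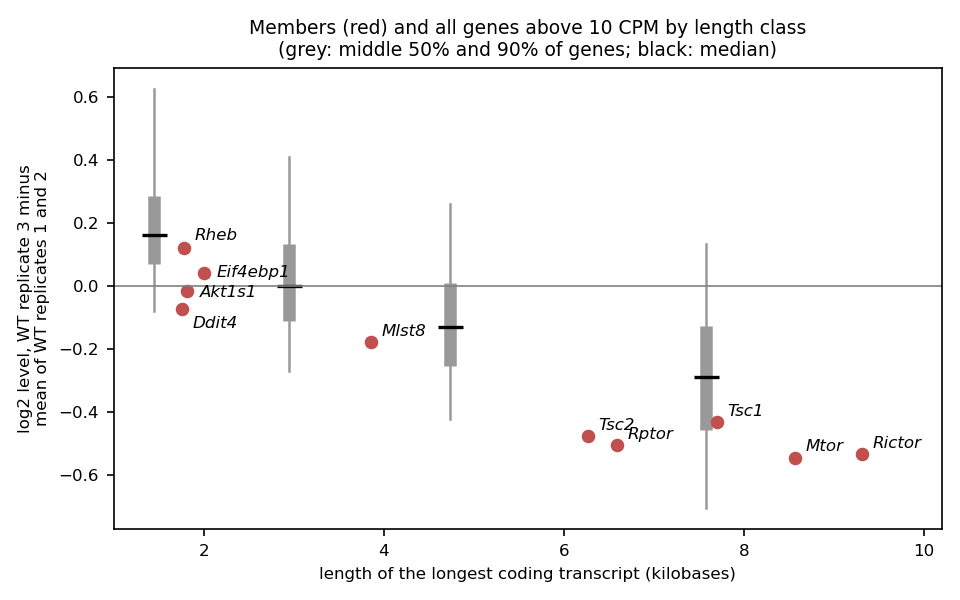
Log2 level of WT replicate 3 minus the mean of WT replicates 1 and 2 (vertical axis) against the length of the longest coding transcript in kilobases (horizontal axis), for the 10 members (red) and for all genes above 10 CPM in 4 length classes (black: median, thick grey: middle 50%, thin grey: middle 90%). The class medians fall from 0.16 to -0.29, and all 10 members lie below the median of their class.

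Levels between genes were compared as CPM per kilobase of all annotated exon. *Mtor* was highest at 43.9 on average over the 6 mice, followed by *Tsc2* (39.9), *Eif4ebp1* (34.4), *Ddit4* (30.5), *Rictor* (20.8), *Mlst8* (13.9), *Akt1s1* (12.97), *Rptor* (10.05), *Rheb* (9.65) and *Tsc1* (7.72). Neighbors in this order had ranges over the 6 libraries that did not overlap for *Ddit4* over *Rictor*, *Rictor* over *Mlst8*, *Akt1s1* over *Rptor* and *Rheb* over *Tsc1*. The ranges of the other neighbors overlapped, although within each library *Mtor* was above *Tsc2* and *Eif4ebp1* above *Ddit4* in all 6. Among all tested genes *Mtor* was above 94.2% and *Tsc1* above 63.8%. The order depends on the length used: per kilobase of the longest coding transcript, *Tsc2* came first (61.3), then *Mtor* (51.8) and *Rheb*, with 7721 bases of exon but a transcript of 1784, next (41.8), while *Tsc1* remained last (11.9).

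Transcript levels within a mouse were also compared as ratios for 3 pairs of genes, which describe RNA and not the amounts of protein or complex. On the log2 scale of CPM per kilobase of exon, *Rptor* to *Rictor* averaged -1.07 ± 0.068 for WT and -1.02 ± 0.12 for MUT (SD, n = 3 each). In every mouse the mTORC1 scaffold thus had the lower transcript level, from -1.14 to -0.88. *Tsc1* to *Tsc2* averaged -2.32 ± 0.11 for WT and -2.42 ± 0.081 for MUT (SD, n = 3 each), so the *Tsc2* transcript was the more abundant partner in all 6 mice. The ratio of *Eif4ebp1* to its paralog *Eif4ebp2* averaged -0.050 ± 0.18 for WT and 0.021 ± 0.069 for MUT (SD, n = 3 each), and its overall mean of -0.014 became 0.12 per kilobase of the longest coding transcript. For all 3 ratios the groups overlapped. WT replicate 3 lay inside the range of the other mice for *Rptor* to *Rictor* and for *Tsc1* to *Tsc2*, genes with long transcripts alike. At 0.13 it was the highest of the 6 for *Eif4ebp1* to *Eif4ebp2*.

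Around the members, 105 other genes of the pathway in 9 lists were measured and tested, and 0 of 105 were called by edgeR, DESeq2 or limma voom. In edgeR 3 genes had an unadjusted p under 0.05, all with positive fold changes, where 2.78% of all genes had one in either direction. Of the 105, 60 had a positive and 45 a negative log2 fold change, with a median of 0.015, and 5 were higher and 2 lower in every MUT mouse than in every WT mouse, against 7.69% of all genes. They included *Akt1*, *Eif4b*, *Eif4ebp3* and *Atg13* (higher) and *Prr5l* and *Sesn1* (lower), of which *Akt1*, *Eif4b* and *Eif4ebp3* are named because their groups did not overlap, a choice made after their values were seen.

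In the growth factor input (17 genes, 7 positive and 10 negative), *Grb10*, which encodes an adaptor that mTORC1 stabilizes and that dampens insulin signaling, had 78.5, 97.4 and 80.3 CPM in WT and 93.0, 128 and 97.2 CPM in MUT. Its fold change on the log2 scale was 0.31 ± 0.13 (standard error; edgeR, unadjusted p = 0.047, adjusted p = 0.998), and the groups overlapped because WT replicate 2 was high. Without MUT replicate 2 it was 0.14. *Irs1*, an insulin receptor substrate, was low in all mice (1.28 to 2.14 CPM), with a log2 fold change of -0.18. *Akt1*, the kinase upstream of TSC2, was at 159, 148 and 150.1 CPM in WT and at 165, 175 and 159 CPM in MUT, a log2 fold change of 0.13 (interval -0.025 to 0.28).

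In the translation targets (13 genes, 10 positive and 3 negative, median 0.069), *Eef2k*, the kinase that slows elongation and that mTORC1 restrains, had 119, 111 and 97.6 CPM in WT and 130.1, 136 and 117 CPM in MUT. Its fold change on the log2 scale was 0.23 ± 0.091 (standard error; edgeR, unadjusted p = 0.035, adjusted p = 0.998), and 0.15 without WT replicate 3. *Eif4g1*, the scaffold of cap-binding initiation, was at 571 to 706 CPM in WT and 666 to 739 CPM in MUT. *Eif4ebp3*, another paralog of *Eif4ebp1*, stood at 0.34 to 0.60 CPM in WT and 0.61 to 0.98 CPM in MUT, and its log2 fold change of 0.66 had an interval from -0.12 to 1.43.

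The inputs that sense nutrients and energy were near 0 in their medians. The amino acid input (29 genes, median 0.0057) ran from -0.15 for *Sesn1*, a leucine-sensing inhibitor of mTORC1, to 0.20 for *Rragb*, a RAG GTPase that recruits mTORC1 to the lysosome. *Sesn1* was at 59.8 to 64.1 CPM in WT and 50.4 to 59.5 CPM in MUT, and every MUT mouse was below every WT mouse (p = 0.1 by the exact permutation test, its lower limit here). In the energy and stress input (11 genes, median 0.027), *Prkaa2*, a catalytic subunit of AMPK, had a log2 fold change of 0.18, and *Ddit4l*, the paralog of *Ddit4*, one of -0.31 at only 1.301 to 2.58 CPM. The ATF4 programme, which mTORC1 can drive to supply amino acids, had a median of -0.0081 over 10 genes, from -0.25 for the cystine transporter *Slc7a11* to 0.18 for the pseudokinase *Trib3*.

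The remaining lists held no gene with an unadjusted p under 0.05 in edgeR apart from *Kit*. Among the other complex subunits and assembly factors (7 genes, median 0.038), *Prr5* and *Prr5l*, which encode paralogs that bind mTORC2, had log2 fold changes of 0.096 and -0.27, and *Prr5l* was at 3.06 to 3.55 CPM in WT and 2.67 to 2.78 CPM in MUT. The autophagy and lysosome targets (8 genes, median 0.0076) ran from -0.090 for *Atg101* to 0.080 for *Atg13*, both subunits of the ULK1 complex that mTORC1 holds inactive. Among the mTORC2 targets (6 genes, median 0.0027), *Sgk1* had a log2 fold change of 0.13 (0.026 without WT replicate 2, 0.25 without MUT replicate 3) and *Prkca* one of -0.071 (-0.19 without WT replicate 3, -0.0024 without MUT replicate 2).

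**Figure D4:**
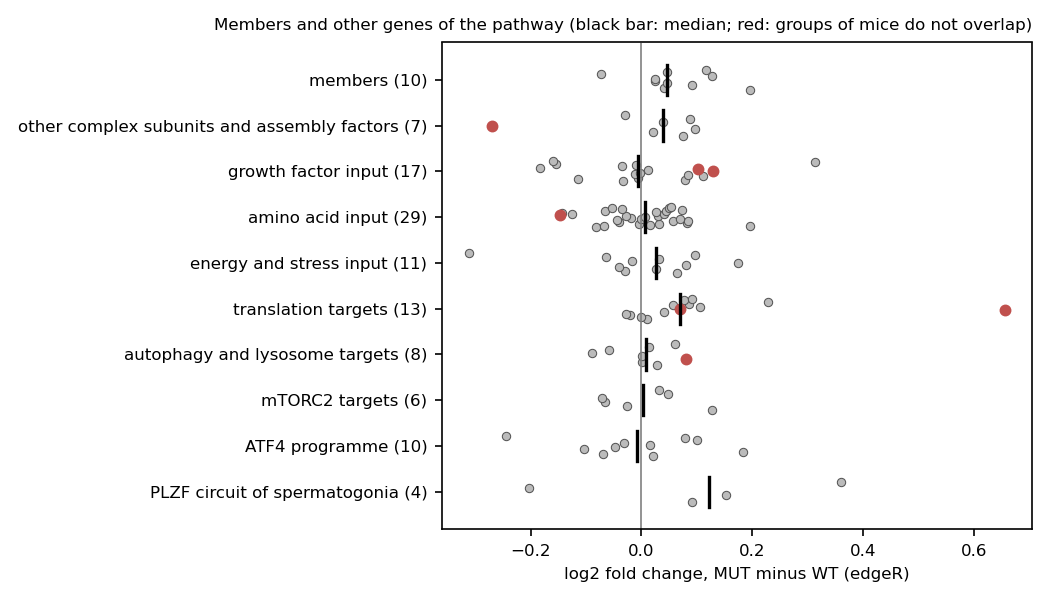
Log2 fold change, MUT minus WT, of the 10 members and of the 105 other pathway genes in 9 lists (1 point per gene, black bar for the list's median, red where the 3 WT and 3 MUT mice do not overlap). Most points lie within 0.2 of 0 on the log2 scale, no gene passed the adjusted threshold, and the point farthest right is *Eif4ebp3* at 0.66.

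The circuit that links PLZF to mTORC1 in spermatogonia was represented by 4 genes. *Zbtb16* itself was at 469, 411 and 303 CPM in WT and at 460.2, 388 and 413 CPM in MUT, with WT replicate 3 lowest, and its log2 fold change was 0.092, or -0.066 without that library. *Sall4*, a transcription factor that binds PLZF, was at 286 to 349 CPM in WT and 336 to 381 CPM in MUT (log2 fold change 0.15, or 0.077 without WT replicate 3). *Gfra1*, which encodes the GDNF co-receptor of A_undiff and whose promoter drove the Cre, had 147, 146 and 110.1 CPM in WT and 133, 104 and 115 CPM in MUT (log2 fold change -0.20, interval -0.50 to 0.097). Without WT replicate 3 that of *Gfra1* was -0.33 (edgeR, unadjusted p = 0.0098, adjusted p = 0.999). *Kit*, the receptor that marks differentiating spermatogonia, had 136, 166 and 124 CPM in WT and 155, 226 and 164 CPM in MUT. Its fold change on the log2 scale was 0.36 ± 0.16 (standard error; edgeR, unadjusted p = 0.0497, adjusted p = 0.998), the groups overlapped, and without MUT replicate 2 it was 0.16. *Kit*, *Grb10* and *Eef2k* were each higher in MUT in all 3 same-numbered pairs. When edgeR took these pairs as blocks, *Kit* had an unadjusted p of 0.0012 (adjusted p = 0.243), *Grb10* one of 0.0020 (adjusted p = 0.257) and *Eef2k* one of 0.010 (adjusted p = 0.459). In that fit 3 of 105 pathway genes and 1297 of all 19656 genes had an unadjusted p under 0.05 (edgeR), against 547 of all genes in the main fit. In DESeq2 with the block the adjusted p of *Kit* was 0.132. These 3 are the pathway genes with an unadjusted p under 0.05 in the same libraries, so the blocked fits are no separate support. The pairs rest on label numbers alone, and deviations of WT replicate 2 correlated more with MUT replicate 1 (0.32) than with MUT replicate 2 (0.17).

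The annotation places 9 genes inside members. Of the 3 inside *Mtor*, *Angptl7*, which encodes a secreted angiopoietin-like protein, spans 148495183 to 148500460 of chromosome 4 on the minus strand, inside the plus-strand *Mtor*, and shares no exonic base with it. Its counts were 45, 59 and 47 in WT and 9, 19 and 10 in MUT, a log2 fold change of -1.97 (interval -2.69 to -1.24; edgeR, unadjusted p = 0.00020, adjusted p = 0.897). *Mtor* around it had 7497 to 10726 counts in WT and 10823 to 11061 in MUT, groups that overlapped after normalization. Counting set no strand option, so fragments from *Mtor* introns at exons of *Angptl7* would count for *Angptl7*, and their share was not tested. *Angptl7* thus had fewer counts in every MUT mouse, which was not so for *Mtor*. The edgeR test used here did not call *Angptl7*. The paper, which tested with DESeq2, lists *Angptl7* among its differentially expressed genes, lower in MUT.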

How the data were processed

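RNA of 6 samples (3 WT, 3 MUT mice, grouped and numbered by their titles) was measured by stranded mRNA sequencing of paired ends. The deposited values are whole, unnormalized fragment counts for each gene name, which the authors made with featureCounts 1.6.2 on GENCODE vM17 with tdTomato added, and per the file headers no strand option was set and multi-mapping or ambiguous fragments were left out by default. Per the submitters' processing notes STAR, FastQC and GRCm38.p6 were used.

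In R 4.3.3, edgeR 4.0.16 fitted genotype to the counts (TMM, filterByExpr, quasi-likelihood test, Benjamini-Hochberg over 19656 genes, FDR 0.1). CPM are TMM-normalized. Intervals of 95% used the fit's degrees of freedom. DESeq2 1.42.0 and limma 3.58.1 (voom) were alternatives. Deviations between libraries used log2(CPM + 0.5). Transcript lengths came from GENCODE vM21 and covered 94.8% of genes above 10 CPM. Tests were also run on simulated counts that held no length trend of a library, with an outcome not given here.

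Members and lists were chosen with earlier results of these data known. Named pathway genes were those with p under 0.05, the PLZF circuit, and per list up to 2 with the largest fold change at 1 CPM or more. The result for 1 pathway gene is not reported by name here. *Castor1* and *Castor2* stand in the files as *Gatsl3* and *Gatsl2*. Deviations of same-numbered WT and MUT libraries correlated at 0.31, 0.17 and 0.39 over 10583 genes, and WT replicate 2 with MUT replicate 1 at 0.32. The numbers come from the labels and nothing names littermates, so the main fit has no block and a fit with the number as a block stands beside it. Between replicates the chi-square per degree of freedom was 4.26 to 24.5, so no library repeated another. Depth limits cover counting error only, since duplicates could not be separated.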

Additional observations from a re-analysis of the deposited data

How the results depend on the processing

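No member and no pathway gene was called in any alternative, the replicate block included (105 pathway genes tested, 104 where at least 10 counts in every sample were required), and the lowest adjusted p of a member was 0.582 (*Eif4ebp1*). The number of genes called among all genes was 2 and became 1 at an FDR of 0.05, 9 with DESeq2 (1 higher, 8 lower in MUT), 4 with limma voom, 5 with no filter, 0 with at least 10 counts in every sample (479 at an unadjusted p under 0.05, edgeR) and 1 with the length correction. Adding the replicate block gave 13 called genes (12 of them lower in MUT) from edgeR, 55 (52 of them lower) from DESeq2 and 3 with the length correction and the block. The block changed no call of a member or pathway gene. Leaving out 1 mouse gave between 0 (without MUT replicate 2) and 6 genes (without MUT replicate 3), with 5 without WT replicate 3 and 1 without MUT replicate 1. The cause of these shifts was not tested.

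Signs of small fold changes turned. Over the fits without 1 mouse the log2 fold change ran from -0.019 to 0.072 for *Mlst8*, from -0.059 to 0.21 for *Rptor*, from -0.11 to 0.21 for *Rictor*, from -0.043 to 0.066 for *Rheb*, from -0.11 to 0.13 for *Tsc1*, from -0.015 to 0.21 for *Tsc2*, from -0.0026 to 0.077 for *Akt1s1* and from -0.066 to 0.23 for *Zbtb16*. With the length correction it was -7.6e-05 for *Rictor* and -0.019 for *Tsc1*, and -0.018 for *Tsc1* with the replicate block added. *Mtor* and *Eif4ebp1* stayed positive and *Ddit4* negative in all 15 alternatives.

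Length scaling moved levels. The level of the highest over the lowest member was 5.69 times, and 5.17 times by the longest coding transcript. The mean log2 ratio of *Rptor* to *Rictor* (-1.05) was -1.38 with no length scaling and -0.88 by transcript, that of *Tsc1* to *Tsc2* (-2.37) was -2.07 with no scaling, and that of *Eif4ebp1* to *Eif4ebp2* (-0.014) was -1.41 with no scaling and 0.12 by transcript. Differences of these ratios between WT and MUT do not depend on length, and without 1 mouse they ran from -0.030 to 0.087 for *Rptor* to *Rictor*, from -0.17 to -0.056 for *Tsc1* to *Tsc2* and from -0.014 to 0.16 for *Eif4ebp1* to *Eif4ebp2*. Scaling by transcript was, like the length correction, chosen after seeing the data.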
